A study of Mus musculus with 12 samples.

Results

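The genes of the CDK inhibitors were followed through the response of mouse embryonic fibroblasts (MEFs) to etoposide. The 7 genes, Cdkn1a, Cdkn1b and Cdkn1c of the Cip/Kip family and Cdkn2a, Cdkn2b, Cdkn2c and Cdkn2d of the INK4 family, were chosen by name, and each of them has a row among the 24421 genes of the count table. All 7 passed the filter on low counts, which left 15220 genes to test. RNA-Seq had been carried out on 12 libraries, 3 replicates in each of 4 groups. Null MEFs, which carry the control genotype, and CRISPR TFEB/TFE3 DKO MEFs, in which the genes of the transcription factors TFEB and TFE3 were edited, were each examined as controls and after 8 hr in 100 µM etoposide. Etoposide traps topoisomerase II on DNA and thereby breaks both strands. The labels call the controls untreated, whereas the methods of the study describe DMSO. All MEFs of the study were immortalized with SV40, whose large T antigen binds p53 and the Rb family, the pathways in which CDK inhibitors act, and this limits the lines as a model of normal fibroblasts. As far as the labels show, each genotype came from 1 line, so that an effect of the edited genes and a difference between lines cannot be told apart. The labels do not say whether replicates were separate cultures, and p-values measure the spread between these libraries, which may be technical.

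CDK inhibitors hold cyclin-dependent kinases in check. The INK4 proteins bind CDK4 and CDK6 and keep D-type cyclins from them, which leaves Rb and its relatives active against E2F factors. The Cip/Kip proteins bind cyclin-CDK complexes more broadly, above all those of CDK2. After DNA damage p53 raises transcription of Cdkn1a, and the protein p21 stops the cell cycle. The Cdkn2a gene also encodes p19Arf, which binds Mdm2 and so protects p53, from another first exon and reading frame. Counts per gene, as used here, cannot separate the Arf transcript from that of p16Ink4a.

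Each library held between 45577023 and 104120871 counts on genes. Levels are given as CPM, counts in proportion to the library size as scaled by edgeR's TMM factors, and levels of different genes are compared only as CPM per kilobase of summed exon length (RPKM). The members had between 54 counts in a library, for Cdkn1c, and 42202, for Cdkn1a. Log2 fold changes stand beside their standard error (SE) and a p from the quasi-likelihood F test in edgeR, adjusted by Benjamini-Hochberg over all 15220 genes, and a gene was called at an adjusted p under 0.05. Where the groups of a comparison do not overlap, the direction holds in 3 of 3 libraries against each of the other 3. RNA from cultures of many cells cannot tell fewer cells with a transcript from less of it per cell.

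The targeted genes were examined first. Tfeb was measured at 38.9, 39.2 and 42.1 CPM in Null controls and at 4.60, 6.09 and 4.68 CPM in DKO controls. After etoposide the values were 11.4, 10.2 and 10.4 CPM in Null and 1.92, 1.61 and 2.20 CPM in DKO MEFs, so that every DKO library lay below every Null library. Tfe3 was measured at 115, 109.9 and 114 CPM in Null controls against 94.1, 93.0 and 91.0 CPM in DKO controls, and after etoposide at 68.5, 69.6 and 68.1 against 70.7, 71.2 and 63.4 CPM. The Tfe3 groups overlapped after etoposide, and an RNA level does not show whether an edited gene still makes protein, so Tfe3 does not check the labels.

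The cells were then checked against marker lists. All 11 fibroblast markers passed the filter, with a summed level of 7122 ± 59.3 CPM in Null controls, 3991 ± 53.2 CPM in Null MEFs after etoposide, 11745 ± 322 CPM in DKO controls and 5197 ± 167 CPM in etoposide-treated DKO MEFs (SD, n = 3 each). Per length S100a4 had the highest mean of them in each group, at 382 ± 29.7 to 947 ± 27.9 RPKM, followed by Vim (SD, n = 3 each). The libraries of S100a4 and Vim overlapped in Null controls, as did those of Vim and Col1a1 in etoposide-treated DKO MEFs. Etoposide lowered 9 of the 11 in Null and 10 in DKO MEFs, where 37.2% and 31.5% of all genes were called lower. In DKO controls 10 were higher and 1 lower than in Null controls, where 33.3% of all genes were called higher and 33.4% lower. Epithelial, endothelial and macrophage markers had low sums. The 5 epithelial genes summed to 2.60 ± 0.314 CPM in Null and 5.35 ± 0.492 CPM in DKO controls, and to 3.29 ± 0.279 and 2.14 ± 0.216 CPM after etoposide (SD, n = 3 each). The 4 endothelial genes summed to between 0.130 ± 0.0821 and 2.54 ± 0.352 CPM (SD, n = 3 each). Per length Krt8 and Tek were the highest of these in 3 groups each, and in etoposide-treated DKO MEFs they lay within the spread of Cdh1 and Pecam1. The 5 macrophage genes summed to 1.99 ± 0.211 CPM in Null controls and 13.9 ± 0.635 CPM in Null MEFs after etoposide, and to 2.12 ± 0.565 and 3.92 ± 0.520 CPM in DKO MEFs (SD, n = 3 each). Adgre1, which defines macrophages, had no count in any control library and at most 6 in an etoposide library, and the leukocyte gene Ptprc had at most 2 counts in a control library. Etoposide raised all 4 tested macrophage genes in Null and 3 in DKO MEFs, and all 4 endothelial genes in each. Of all genes tested, 42.3% were called higher in Null and 43.7% in DKO MEFs. Cd68 was the highest macrophage gene per length in each group, at up to 9.51 ± 0.380 RPKM (SD, n = 3). The 4 pluripotency and neural genes, of which Tubb3 was the highest per length in each group, summed to 62.5 ± 2.44 CPM in Null and 16.3 ± 1.19 CPM in DKO controls, and to 66.4 ± 2.78 and 30.2 ± 1.27 CPM after etoposide (SD, n = 3 each). Pou5f1, which marks pluripotent cells, had at most 5 counts in a library. Thus in both genotypes the fibroblast sum was lower, and the macrophage and endothelial sums were higher, after etoposide. In DKO MEFs the epithelial sum was also lower, and the neural sum higher, after etoposide. By gene, 3 epithelial genes were called higher there and only Krt8 lower (log2 fold change -3.18), with a median of 0.76 against 0.14 over all genes. Of the pluripotency and neural genes 1, Tubb3, was called higher (0.998) and 1 lower. Between control groups the fibroblast and epithelial sums were higher and the neural sum lower in DKO MEFs. By gene, 1 epithelial gene, Krt8, was called higher (log2 fold change 1.61) and 2 lower, with a median of -1.92 against -0.024. All 3 tested pluripotency and neural genes were called lower, against 33.4% of all genes. Most members differed in these comparisons too, and the part of the marker shifts in the members' results was not tested.

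Cdkn1a, which encodes p21, rose more than any other member. It was measured at 71.5, 65.6 and 60.1 CPM in Null controls and at 498, 511 and 509.9 CPM in Null MEFs after etoposide. In DKO MEFs the values were 38.4, 39.8 and 40.7 CPM in controls and 242, 254 and 227 CPM after etoposide. The 4 groups did not overlap, and the DKO libraries were the lower ones in each treatment. The transcript rose 7.69-fold in Null MEFs and 6.07-fold in DKO MEFs, the latter with a log2 value of 2.60 (SE 0.06, adjusted p = 5.14e-17, edgeR's quasi-likelihood F test with the Benjamini-Hochberg adjustment). The rise was thus somewhat smaller in DKO MEFs (interaction -0.34, SE 0.07, adjusted p = 0.000826, same edgeR test). Between genotypes Cdkn1a was lower in DKO MEFs already in controls (log2 fold change -0.73, SE 0.05, adjusted p = 1.89e-09, same edgeR test), and after etoposide the difference was -1.07 (SE 0.05, adjusted p = 2.89e-12, same edgeR test). The gene lies on chromosome 17 (GRCm38, chr17:29090976-29100727, plus strand), and 273 bases of its exons overlap an unclassified transcript, AC167363.2, on the opposite strand. The libraries were made with a stranded kit, but the sources used here do not say whether the counting used strand, so reads of the 2 may not have been told apart.

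Since Cdkn1a carried the largest response, the sequence upstream of its 2 RefSeq start sites is shown, from the RefSeq promoter windows on GRCm38.p6, plus strand, without bases of annotated exons. The window of the upstream start (chr17:29090729-29090975) holds a match to the p53 consensus site in capitals, a 20-base run with 1 mismatch, and lies outside the annotated gene. That of the downstream start (chr17:29093519-29093768) lies in an intron of the gene, and its capitals mark 2 GC boxes (GGGCGG), the motif of Sp1, which is known to act on Cdkn1a.
Cdkn1a upstream start: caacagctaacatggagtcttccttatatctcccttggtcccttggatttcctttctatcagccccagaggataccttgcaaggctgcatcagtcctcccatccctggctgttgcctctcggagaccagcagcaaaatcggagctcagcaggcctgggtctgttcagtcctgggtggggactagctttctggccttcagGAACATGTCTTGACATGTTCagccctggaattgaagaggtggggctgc
Cdkn1a downstream start: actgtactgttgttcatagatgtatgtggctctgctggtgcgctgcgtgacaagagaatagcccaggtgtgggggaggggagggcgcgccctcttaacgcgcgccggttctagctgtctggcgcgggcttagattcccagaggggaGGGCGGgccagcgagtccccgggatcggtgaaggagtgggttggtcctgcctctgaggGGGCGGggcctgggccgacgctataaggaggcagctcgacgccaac

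The p53 match begins 51 bases before the upstream start. A p53 match, counted on both strands with at most 2 mismatches outside the fixed core bases and no spacer, was found in 44 of 32851 upstream windows of 250 bases in the RefSeq table, or 0.134%. A GC box was in 32.7% of all and in windows of 5 members, with 1 for Cdkn1b, 2 for the Arf start of Cdkn2a and 3 each for Cdkn2c and Cdkn2d beside the 2 printed, so it does not set Cdkn1a apart. A match of letters is a description of the window and not evidence that a factor was bound there. RefSeq windows were found for 6 of the 7 members, 9 windows in all, and Cdkn1c had none. The E-box CACGTG, which TFEB and TFE3 are known to bind, was in none of the 9 upstream parts and in 6.02% of all 32851, and nothing about either factor can be read from its absence in such short windows.

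Cdkn1b encodes p27, which holds CDK2 in resting cells and is controlled largely by degradation. It was measured at 68.9, 72.1 and 68.4 CPM in Null controls and 49.6, 52.7 and 52.0 CPM after etoposide. In DKO MEFs the values were 98.7, 94.7 and 99.4 CPM in controls and 49.4, 53.7 and 57.9 CPM after etoposide. Controls of the DKO genotype stood highest, and after etoposide the genotypes overlapped. The transcript fell with etoposide in Null MEFs (log2 fold change -0.44, SE 0.05, adjusted p = 2.61e-07, same edgeR test) and in DKO MEFs (-0.86, SE 0.05, adjusted p = 3.85e-11, same edgeR test). The fall was larger in DKO MEFs (interaction -0.42, SE 0.07, adjusted p = 6.14e-05, same edgeR test). In controls Cdkn1b was 1.40-fold higher in DKO MEFs (log2 fold change 0.48, SE 0.05, adjusted p = 8.53e-08, same edgeR test). After etoposide the log2 fold change of 0.066 from Null to DKO MEFs, with an SE of 0.05, did not pass the test (adjusted p = 0.238, same edgeR test), and this value was -0.0069 without replicate 3 of the DKO etoposide group.

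Cdkn1c encodes p57, and in mice the gene is imprinted and expressed from the maternal copy. It was the lowest member per length in every group, and was measured at 3.10, 3.60 and 2.80 CPM in Null controls and 9.59, 10.9 and 11.1 CPM in Null MEFs after etoposide. In DKO MEFs it was measured at 1.22, 0.956 and 0.906 CPM in controls and at 1.82, 1.88 and 1.45 CPM after etoposide. The Null etoposide libraries stood far above the rest, and no groups compared overlapped. The level rose 3.33-fold in Null MEFs (log2 fold change 1.74, SE 0.11, adjusted p = 1.41e-10, same edgeR test) and 1.64-fold in DKO MEFs (log2 fold change 0.72, SE 0.20, adjusted p = 0.00344, same edgeR test). The interaction was -1.02 (SE 0.23, adjusted p = 0.0013, same edgeR test). Cdkn1c also showed the widest gap of the 7 members between genotypes, 3.08-fold lower in DKO controls (log2 fold change -1.63, SE 0.17, adjusted p = 2.01e-07, same edgeR test) and 6.26-fold lower in DKO MEFs after etoposide (log2 fold change -2.65, SE 0.13, adjusted p = 3.02e-12, same edgeR test). With 54 to 88 counts in each DKO control library and 90 to 146 after etoposide, its error was the largest of the 7. In addition, 625 bases of its exons overlap the antisense gene Gm44732, and reads of the 2 may likewise be mixed.

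**Figure D1:**
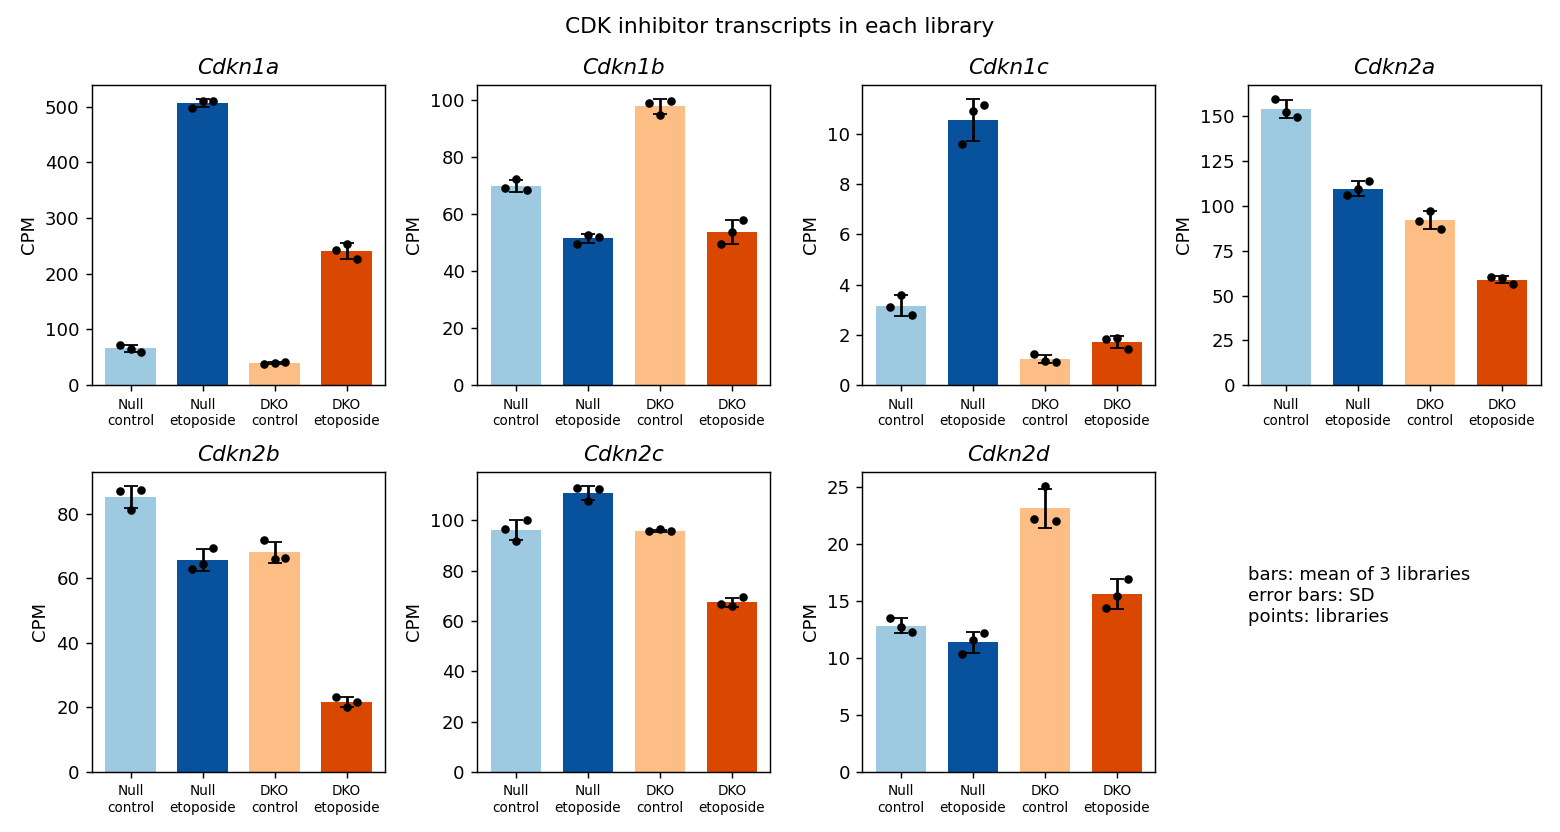
Level of each CDK inhibitor transcript in CPM (vertical axis, from 0) in the 4 groups, with bars for the mean of 3 libraries, error bars for the SD and points for single libraries. Cdkn1a reached 498 to 511 CPM in Null and 227 to 254 CPM in DKO MEFs after etoposide, whereas Cdkn2b fell to between 20.05 and 23.2 CPM in DKO MEFs after etoposide.

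Of the INK4 genes, Cdkn2a and Cdkn2b are neighbours on chromosome 4, 11646 bases apart on the minus strand. Cdkn2a (GRCm38, chr4:89274471-89294653), the gene of p16Ink4a and p19Arf, was measured at 160, 153 and 149.9 CPM in Null controls and 106, 109 and 114 CPM after etoposide. In DKO MEFs it was measured at 91.7, 97.2 and 87.1 CPM in controls and 60.2, 59.8 and 56.5 CPM after etoposide. The groups did not overlap and ran downward from Null controls to DKO MEFs after etoposide. Etoposide lowered Cdkn2a in Null MEFs (log2 fold change -0.49, SE 0.04, adjusted p = 1.33e-08, same edgeR test) and in DKO MEFs (-0.65, SE 0.05, adjusted p = 6.51e-10, same edgeR test). Between genotypes it was lower in DKO MEFs in controls (log2 fold change -0.74, SE 0.04, adjusted p = 8.25e-11, same edgeR test) and after etoposide (-0.90, SE 0.05, adjusted p = 6.12e-12, same edgeR test). The interaction, -0.16 with an SE of 0.06, barely passed the test (adjusted p = 0.0421, same edgeR test), and over the alternatives its adjusted p ran from 0.00182 to 0.506. It did not pass with scaling by library size alone, nor when replicate 2 or 3 of the Null controls (-0.15 and -0.13), replicate 2 of the DKO controls (-0.13), replicate 2 or 3 of the Null etoposide group (-0.17 and -0.13) or replicate 3 of the DKO etoposide group (-0.14) was left out.

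Cdkn2b (GRCm38, chr4:89306299-89311039) encodes p15, an inhibitor of CDK4 and CDK6 known for its induction by TGF-beta. It was measured at 87.1, 81.3 and 87.1 CPM in Null controls and 62.8, 64.5 and 69.3 CPM after etoposide. In DKO MEFs the values were 71.8, 65.8 and 66.4 CPM in controls and 23.2, 20.05 and 21.7 CPM after etoposide. The DKO etoposide libraries stood alone at the low end, whereas Null MEFs after etoposide overlapped with DKO controls. The transcript fell 1.30-fold in Null MEFs (log2 fold change -0.38, SE 0.05, adjusted p = 3.55e-06, same edgeR test) and 3.15-fold in DKO MEFs (log2 fold change -1.65, SE 0.06, adjusted p = 3.12e-14, same edgeR test). The interaction of -1.28 was the largest of the 7 members in size (SE 0.08, adjusted p = 3.08e-10, same edgeR test). Cdkn2b was lower in DKO than in Null MEFs in controls (log2 fold change -0.33, SE 0.05, adjusted p = 2.75e-05, same edgeR test) and after etoposide (-1.60, SE 0.06, adjusted p = 5.48e-14, same edgeR test).

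As both genes of the locus fell with etoposide and were lower in DKO MEFs, the sequence upstream of the Arf start of Cdkn2a (chr4:89294654-89294869) and of the Cdkn2b start (chr4:89311040-89311282) is shown, from RefSeq on GRCm38.p6, minus strand, outside annotated exons. Capitals mark an E2F motif (TTTCCCGC) for Cdkn2a, whose only printed GC box is left in lower case, and a cyclic AMP response element (TGACGTCA) for Cdkn2b. The other GC box of the Cdkn2a window lies in exon bases that are not shown.
Cdkn2a Arf start: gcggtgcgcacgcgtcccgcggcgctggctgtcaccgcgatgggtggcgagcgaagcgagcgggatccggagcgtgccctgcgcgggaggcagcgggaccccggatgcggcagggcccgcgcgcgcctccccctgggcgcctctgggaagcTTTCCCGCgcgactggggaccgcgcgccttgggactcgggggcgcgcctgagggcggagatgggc
Cdkn2b start: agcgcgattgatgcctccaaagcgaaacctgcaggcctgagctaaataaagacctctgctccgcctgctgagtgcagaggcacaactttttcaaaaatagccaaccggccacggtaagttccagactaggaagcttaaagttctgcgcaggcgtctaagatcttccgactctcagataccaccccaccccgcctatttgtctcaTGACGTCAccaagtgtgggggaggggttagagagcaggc

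On either strand, the E2F letters TTTCCCGC or TTTGGCGC were in 1.30% and TGACGTCA in 1.55% of the 32851 upstream parts, and among the members each was found only in the window printed. The letters of the CCAAT box were in the windows of Cdkn1b and Cdkn2d and in 33.8% of all, and the AP-1 motif TGACTCA was in no member's window and in 4.46% of all. None of these motifs overlapped another in the member windows. The Arf start window has 78.4% and the Cdkn2b window 53.6% G and C bases over 250 bases.

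Cdkn2c encodes p18, which binds CDK6 in particular. It was measured at 96.5, 91.9 and 99.997 CPM in Null controls and 113, 108 and 112 CPM after etoposide. In DKO MEFs it was measured at 95.8, 96.4 and 95.6 CPM in controls and at 66.7, 65.9 and 69.5 CPM after etoposide. The control groups overlapped, and etoposide moved the genotypes to opposite sides of them. The level rose 1.15-fold in Null MEFs (log2 fold change 0.21, SE 0.04, adjusted p = 7.33e-05, same edgeR test) and fell 1.42-fold in DKO MEFs (log2 fold change -0.51, SE 0.04, adjusted p = 1.53e-09, same edgeR test). The interaction was -0.72 (SE 0.05, adjusted p = 4.26e-09, same edgeR test), and the difference between genotypes after etoposide was also -0.72 (SE 0.04, adjusted p = 1.15e-11, same edgeR test). In controls it was -0.0032 with an SE of 0.04 (adjusted p = 0.963, same edgeR test). This control difference passed the test with scaling by library size alone, at -0.12, and was 0.025 without replicate 3 of the Null controls.

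Cdkn2d encodes the INK4 protein p19, which is unrelated to p19Arf. It was measured at 13.5, 12.7 and 12.3 CPM in Null controls and 10.3, 11.6 and 12.2 CPM after etoposide. In DKO MEFs the values were 22.2, 25.1 and 22.1 CPM in controls and 14.4, 15.5 and 16.96 CPM after etoposide. The DKO libraries stood above the Null libraries in each treatment, the reverse of Cdkn2a and Cdkn2b. Between genotypes Cdkn2d was 1.81-fold higher in DKO controls (log2 fold change 0.85, SE 0.08, adjusted p = 2.25e-08, same edgeR test) and 1.38-fold higher after etoposide (log2 fold change 0.47, SE 0.08, adjusted p = 4.22e-05, same edgeR test). Etoposide lowered it in DKO MEFs (log2 fold change -0.56, SE 0.07, adjusted p = 3.1e-06, same edgeR test). In Null MEFs the groups did not overlap either, yet the log2 fold change of -0.18, with an SE of 0.08, did not pass the test (adjusted p = 0.0529, same edgeR test). It passed under 5 of 15 alternatives, among them when replicate 3 of the Null controls (-0.22) or replicate 3 of the Null etoposide group (-0.24) was left out, and the adjusted p ran from 0.0226 to 0.892. The value was -0.012 with library size alone and -0.093 with the filter at a mean of 1 CPM. The interaction was -0.38 (SE 0.11, adjusted p = 0.00737, same edgeR test).

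Counts of members are set beside those of all 15220 genes. Etoposide raised 3 members and lowered 3 in Null MEFs, where 42.3% of all genes were called higher and 37.2% lower, and it raised 2 and lowered 5 in DKO MEFs, where 43.7% of all were higher and 31.5% lower. In controls 2 members were higher and 4 lower in DKO than in Null MEFs, against 33.3% and 33.4% of all genes. After etoposide 1 was higher and 5 were lower, against 37.5% and 36.6%. The interaction was called below 0 for all 7 members and above 0 for none, against 24.4% of all genes below and 29.6% above. With so many genes called in each comparison, a call alone sets no member apart. Scaling by library size alone gave 7803 genes higher and 4396 lower after etoposide in Null MEFs in place of 6435 and 5656, and 9316 and 3006 in DKO MEFs in place of 6645 and 4790. The same scaling gave 3977 and 6393 in place of 5066 and 5091 between control groups, and 5735 above and 3055 below 0 in place of 4507 and 3719 for the interaction. With DESeq2's size factors in edgeR the interaction was above 0 for 3797 and below 0 for 4192 genes. No called member changed direction under library size alone, and Cdkn2a was then no longer called in the interaction. Etoposide values of some members moved by over 1.5 times, in Null MEFs those of Cdkn1b (-0.27), Cdkn2a (-0.32), Cdkn2b (-0.21), Cdkn2c (0.37) and Cdkn2d (-0.012), and in DKO MEFs those of Cdkn2a (-0.37), Cdkn2c (-0.24) and Cdkn2d (-0.29). Library size alone also moved the median of all genes, by 0.17 in Null and 0.27 in DKO MEFs, and relative to that median Cdkn1a rose by 2.88 in Null MEFs and 2.47 in DKO MEFs under either scaling.

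**Figure D2:**
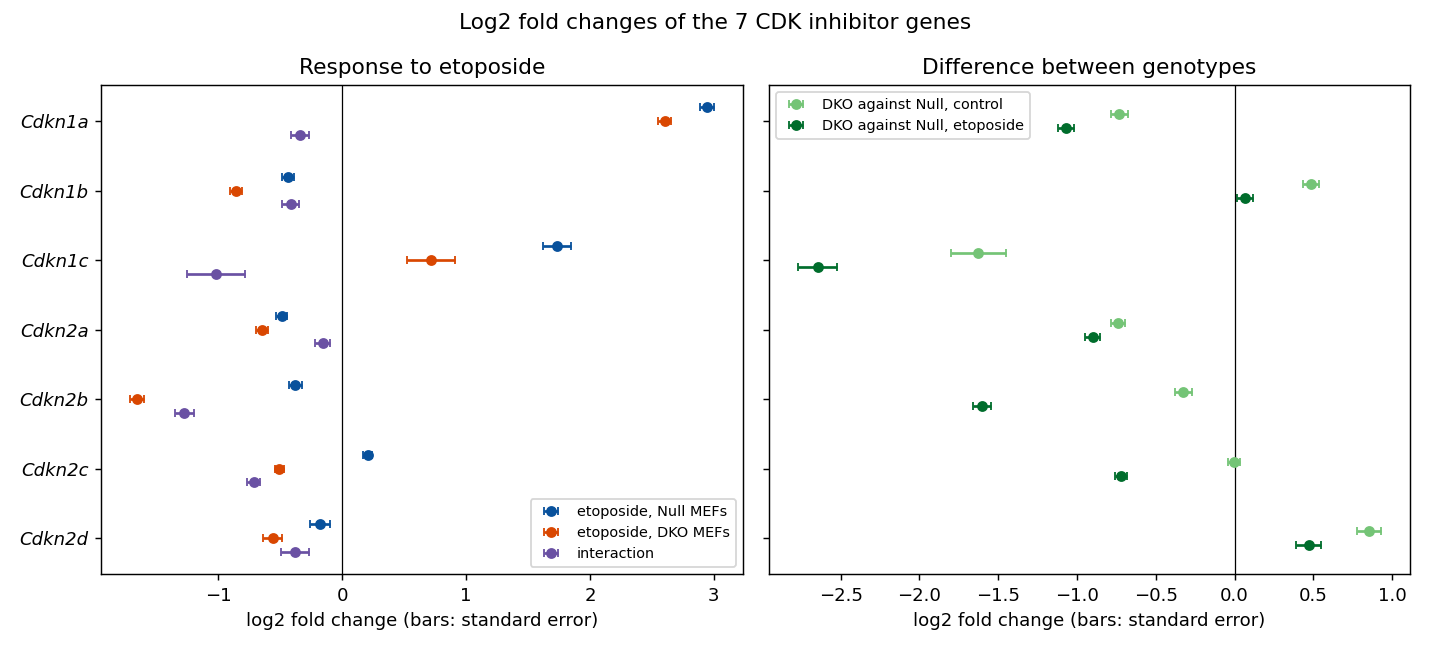
Log2 fold changes of the 7 genes (horizontal axis, with the standard error as bars) for etoposide against control in Null and DKO MEFs and for the interaction (left), and for DKO against Null MEFs in controls and after etoposide (right). The interaction ran from -1.28 for Cdkn2b to -0.16 for Cdkn2a, and the genotype difference after etoposide from -2.65 for Cdkn1c to 0.47 for Cdkn2d.

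Per length of transcript the order of the members changed with treatment. In Null controls Cdkn2a stood first at 131 ± 4.29 RPKM, before Cdkn2b at 61.3 ± 2.43, Cdkn2c at 35.8 ± 1.52, Cdkn1a at 18.5 ± 1.61, Cdkn1b at 15.3 ± 0.442, Cdkn2d at 8.15 ± 0.403 and Cdkn1c at 1.55 ± 0.198 RPKM (SD, n = 3 each). After etoposide Cdkn1a stood first in Null MEFs at 142 ± 2.06 RPKM, before Cdkn2a at 93.7 ± 3.51, Cdkn2b at 47.2 ± 2.44, Cdkn2c at 41.3 ± 1.033, Cdkn1b at 11.3 ± 0.365, Cdkn2d at 7.23 ± 0.602 and Cdkn1c at 5.17 ± 0.408 RPKM (SD, n = 3 each). The INK4 genes Cdkn2a, Cdkn2b and Cdkn2c led again in DKO controls, at 78.5 ± 4.32, 48.9 ± 2.38 and 35.7 ± 0.160 RPKM (SD, n = 3 each). There Cdkn1a stood at 11.2 ± 0.321 RPKM, behind Cdkn1b at 21.4 ± 0.558 and Cdkn2d at 14.7 ± 1.08 RPKM and before Cdkn1c at 0.504 ± 0.0823 RPKM (SD, n = 3 each). In DKO MEFs after etoposide Cdkn1a led at 67.8 ± 3.86 RPKM, before Cdkn2a at 50.2 ± 1.76 RPKM, and Cdkn2b, which stood above Cdkn2c in the other groups, stood below it, at 15.6 ± 1.14 against 25.1 ± 0.702 RPKM (SD, n = 3 each). The remaining 3 of that group were Cdkn1b at 11.8 ± 0.927, Cdkn2d at 9.91 ± 0.826 and Cdkn1c at 0.843 ± 0.115 RPKM (SD, n = 3 each). In none of the 4 groups did the libraries of neighbours in the order overlap.

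The balance between the families differed between groups as well. The Cip/Kip sum was 35.4 ± 1.84 RPKM in Null and 33.1 ± 0.631 RPKM in DKO controls, and after etoposide 159 ± 2.82 RPKM in Null and 80.4 ± 3.55 RPKM in DKO MEFs (SD, n = 3 each). Cdkn1a made up 52.2 ± 2.17% of that sum in Null controls and 33.7 ± 0.934% in DKO controls, and 89.6 ± 0.298% and 84.3 ± 1.43% after etoposide (SD, n = 3 each). In DKO controls Cdkn1b held the larger share of the Cip/Kip sum, at 64.8 ± 0.729% (SD, n = 3). The INK4 sum, in contrast, was 237 ± 6.26 RPKM in Null controls, 189 ± 6.65 RPKM in Null MEFs after etoposide, 178 ± 5.48 RPKM in DKO controls and 101 ± 1.12 RPKM in etoposide-treated DKO MEFs (SD, n = 3 each). The sum over both families was thus higher after etoposide than in controls in Null MEFs, at 348 ± 8.74 against 272 ± 7.10 RPKM, and lower in DKO MEFs, at 181 ± 3.24 against 211 ± 4.88 RPKM (SD, n = 3 each). With library size alone, tried for sums after seeing the data, the DKO sums were 195 ± 4.30 after etoposide against 187 ± 3.43 RPKM in controls (SD, n = 3 each), so their order depends on the scaling. These sums are a description with no test, and RNA levels do not give those of the proteins.

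**Figure D3:**
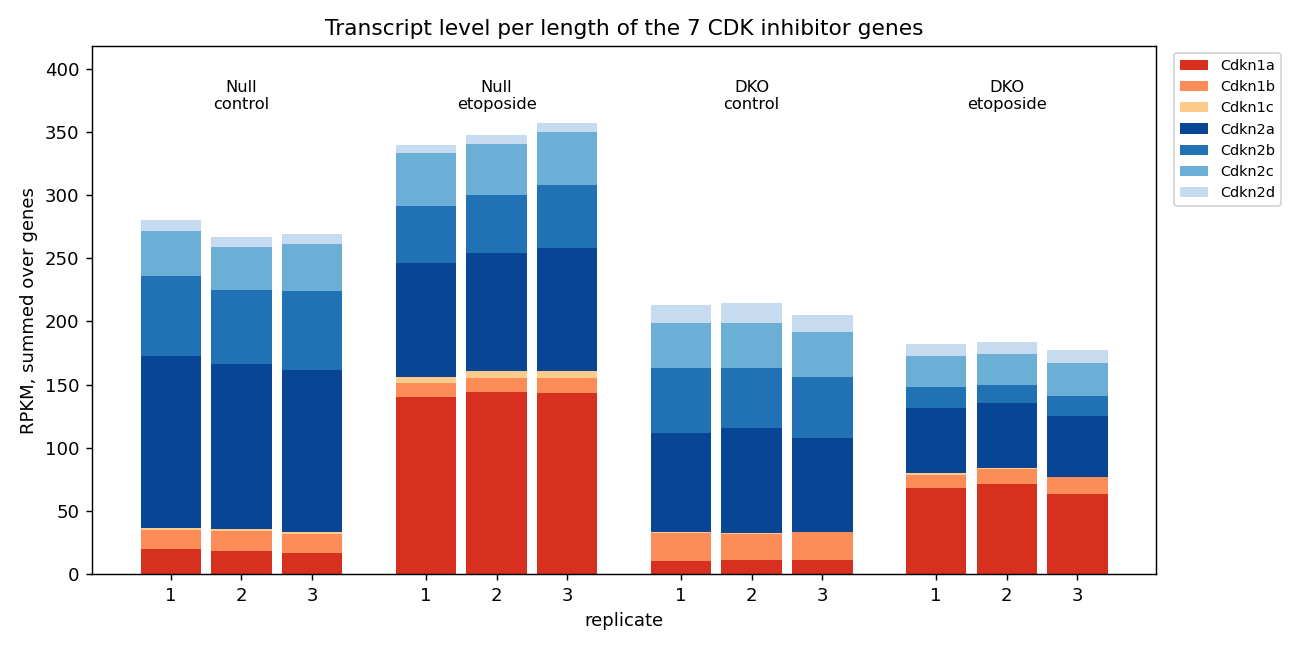
Transcript level per length (RPKM, vertical axis, stacked from 0) of the 7 genes in each of the 12 libraries, with Cip/Kip genes in red to yellow and INK4 genes in blue. The stacks reach 339.7 to 357 RPKM in Null MEFs after etoposide and 178 to 184 RPKM in DKO MEFs after etoposide.

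Over the 12 libraries, levels of Cdkn2a and Cdkn2b ran together (Pearson r = 0.914 of log2 CPM), as did those of Cdkn2b and Cdkn2c (r = 0.888), whereas Cdkn1a and Cdkn1b ran against each other (r = -0.925). The libraries fall into 4 groups, and these coefficients mostly describe the 4 group means, so they are given with no p. Out of all genes averaging 10 CPM or more, those most like Cdkn1a were Zfp365 (r = 0.998), Odc1 (r = 0.996) and Tbc1d8 (r = 0.996). The genes most like Cdkn1b were Filip1l, Calm2 and Cdc42ep3 (r = 0.989 each), and those most like Cdkn1c were Smpdl3b (r = 0.993), Cenpm (r = 0.992) and Cdc42ep4 (r = 0.991). Eno1 (r = 0.996) and Colec12 (r = 0.993) were among those most like Cdkn2a. Bub1b (r = 0.990), Csrp2 (r = 0.989) and Rab32 (r = 0.988) were most like Cdkn2b, and Cxcl1 (r = 0.989), Arhgef40 (r = 0.988) and Ppp1r12b (r = 0.984) most like Cdkn2c. For Cdkn2d these were Chmp3 (r = 0.987), Serpinb9 (r = 0.983) and Sdpr (r = 0.982).

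Neighbours on the chromosomes did not all move with the members. Mtap, on the other side of Cdkn2a at a distance of 93390 bases, fell with etoposide (log2 fold changes -0.92 in Null and -0.45 in DKO MEFs), and its interaction of 0.47 (SE 0.05, adjusted p = 3.03e-07, same edgeR test) had the sign opposite to that of Cdkn2a and Cdkn2b. Rab44, 13418 bases beyond Cdkn1a, rose with etoposide in Null (log2 fold change 8.41, SE 0.35, adjusted p = 3.41e-15, same edgeR test) and DKO MEFs (3.65, SE 0.66, adjusted p = 4.25e-05, same edgeR test), from few counts in the controls. Srsf3 on the other side fell (log2 fold changes -0.25 and -0.24). Kri1, 441 bases from Cdkn2d, fell (log2 fold changes -0.53 in Null and -0.27 in DKO MEFs). Next to Cdkn1b, Gpr19 rose in both genotypes (log2 fold changes 1.73 and 1.76), against the fall of Cdkn1b itself. Faf1, beside Cdkn2c, fell in Null MEFs (log2 fold change -1.56), where Cdkn2c rose, and in DKO MEFs (-1.16).

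The imprinted region around Cdkn1c on chromosome 7 was followed with 9 other genes. With etoposide 7 rose and 2 fell in Null MEFs, with a median log2 fold change of 0.65 against 0.066 over all genes, and 3 rose and 2 fell in DKO MEFs, with a median of 0.12 against 0.14. In controls 4 were higher and 3 lower in DKO than in Null MEFs, with a median of 0.28 against -0.024. After etoposide 3 were higher and 5 lower in DKO than in Null MEFs, with a median of -0.65 against -0.0045. The interaction was called above 0 for 1 gene and below 0 for 4, with a median of -0.18 against 0.047. Slc22a18, an adjacent gene that is also expressed from the maternal copy, rose with Cdkn1c in Null MEFs, from 0.316 ± 0.335 to 6.92 ± 0.602 CPM, and reached 0.204 ± 0.0164 CPM in etoposide-treated DKO MEFs (SD, n = 3 each). Slc22a18 was thus lower in DKO than in Null MEFs after etoposide (log2 fold change -5.09, SE 0.30, adjusted p = 2.07e-11, same edgeR test). Its etoposide value in DKO MEFs, 1.96, did not pass the test (adjusted p = 0.067, same edgeR test), nor did its interaction of -2.35 (SE 1.33, adjusted p = 0.148, same edgeR test). The antisense transcript Kcnq1ot1, made from the paternal copy and known to silence the region on that copy, fell (log2 fold changes -1.74 in Null and -0.54 in DKO MEFs), and its interaction was 1.20 (SE 0.25, adjusted p = 0.000528, same edgeR test). Ascl2, with 0 to 4 counts in a Null control library, rose in Null MEFs from 0.0247 ± 0.0327 to 2.14 ± 0.299 CPM (SD, n = 3 each). In etoposide-treated DKO MEFs Ascl2 stood at 0.0824 ± 0.0559 CPM (SD, n = 3). Its etoposide value in DKO MEFs, 1.08, did not pass the test (SE 1.08, adjusted p = 0.366, same edgeR test).

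The kinases and cyclins that the inhibitors act on moved in both directions. Of 12 genes, 3 rose and 6 fell with etoposide in Null MEFs, and 6 rose and 6 fell in DKO MEFs, with medians of -0.081 and -0.12 against 0.066 and 0.14 over all genes. The cyclin E genes, which activate CDK2, rose in Null MEFs (log2 fold changes 1.79 for Ccne2 and 1.46 for Ccne1) and in DKO MEFs (1.39 and 0.99). In contrast Cdk6, a partner of the INK4 proteins, fell (-2.15 in Null and -1.56 in DKO MEFs). The mitotic cyclins Ccnb1 (-0.93 in each genotype) and Ccnb2 (-0.70 in Null and -1.14 in DKO MEFs) fell too. In controls 1 of the 12 was higher and 6 were lower in DKO MEFs (median -0.097 against -0.024), with Ccnd1 at -2.62 (29.6 ± 2.88 against 182 ± 0.392 CPM, SD, n = 3 each) and Cdk6 at -2.36 (5.66 ± 0.845 against 29.2 ± 1.31 CPM, SD, n = 3 each). The interaction was called above 0 for 5 and below 0 for 4, with a median of -0.015 against 0.047, and the highest was that of Ccnd2 at 1.27. Of the 8 pocket protein and E2F genes, 4 rose and 2 fell with etoposide in Null MEFs, with a median of 0.16 against 0.066, and 4 rose and 1 fell in DKO MEFs, with a median of 0.049 against 0.14. Rb1 rose on the log2 scale by 1.10 in Null and 0.29 in DKO MEFs, with an interaction of -0.81 (SE 0.09, adjusted p = 5.19e-07, same edgeR test), and Rbl2 had -0.71 (SE 0.06, adjusted p = 1.46e-08, same edgeR test). In this list the interaction was called above 0 for 3 genes and below 0 for 2, with a median of -0.013 against 0.047, and those above included E2f2 at 0.87, the largest in size, and E2f4 at 0.44.

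Genes that set the amount of Cip/Kip proteins were examined in separate lists. Of 13 genes for their turnover by ubiquitin ligases or their phosphorylation, 7 rose and 5 fell in Null MEFs with etoposide and 7 rose and 6 fell in DKO MEFs, with medians of 0.18 and 0.29 against 0.066 and 0.14 over all genes. Ubac1, a subunit of a ligase for p27, rose on the log2 scale by 1.52 in Null and 0.68 in DKO MEFs, with an interaction of -0.84 (SE 0.05, adjusted p = 8.27e-10, same edgeR test). Over the list the interaction was called above 0 for 4 genes and below 0 for 3, with a median of 0.11 against 0.047. In controls 5 of the 13 were higher and 5 lower in DKO than in Null MEFs, and after etoposide 8 were higher and 4 lower, with medians of 0.0027 and 0.11 against -0.024 and -0.0045. Cul4b was higher (log2 fold changes 0.49 in controls and 0.60 after etoposide), while Skp2, which marks p27 for degradation, was lower in DKO MEFs (log2 fold changes -0.56 in controls and -0.47 after etoposide), as was Cdc20 (-0.61 and -1.19). Of 12 genes that regulate transcription of the Cip/Kip genes directly or indirectly, 3 rose and 8 fell with etoposide in Null MEFs. In DKO MEFs 2 rose and 8 fell. The medians were -0.37 in Null and -0.29 in DKO MEFs, against 0.066 and 0.14 over all genes. The largest change in Null MEFs was the rise of Mdm2 (3.92, and 2.44 in DKO MEFs). Its product is a ubiquitin ligase that acts on p53, and the gene is itself a p53 target, counted again in the list of those targets. Smad3, a mediator of TGF-beta signals, fell (log2 fold changes -1.99 in Null and -2.86 in DKO MEFs), as did Klf4 (-1.54 and -2.15). Foxo1, an activator of Cdkn1b, was higher in DKO than in Null controls, at 164 ± 3.62 against 40.1 ± 0.226 CPM, and after etoposide stood at 32.1 ± 2.05 CPM in DKO and 32.8 ± 1.10 CPM in Null MEFs (SD, n = 3 each), an interaction of -2.06 (SE 0.06, adjusted p = 6.34e-14, same edgeR test). The interaction was called above 0 for 2 of these 12 genes and below 0 for 7, with a median of -0.45 against 0.047 over all genes.

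Known targets of p53 other than Cdkn1a served as a reference for its response. Of 14 genes, 13 rose and 1 fell with etoposide in Null MEFs, with a median of 2.25 against 0.066, and 12 rose and 2 fell in DKO MEFs, with a median of 0.96 against 0.14. After etoposide all 14 were lower in DKO MEFs, with a median of -0.80 against -0.0045 over all genes. The interaction was called below 0 for 11 and above 0 for none, with a median of -0.91 against 0.047. Ccng1 rose on the log2 scale by 4.18 in Null and 2.27 in DKO MEFs, an interaction of -1.91 (SE 0.05, adjusted p = 1.36e-14, same edgeR test). The interaction of Cdkn1a, -0.34, was smaller in size than this median. The list was drawn up with earlier results of these libraries known, and its direction is no independent evidence.

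Of 15 regulators of the Cdkn2a and Cdkn2b locus, among them Polycomb subunits that are known to silence it, 3 rose and 10 fell with etoposide in Null MEFs and 3 rose and 9 fell in DKO MEFs, with medians of -0.34 and -0.14 against 0.066 and 0.14. The interaction was called above 0 for 4 and below 0 for 5, with a median of 0.13 against 0.047. Tbx2, a repressor of the locus, rose in Null MEFs (log2 fold change 5.59), from 0.557 ± 0.195 to 27.0 ± 2.84 CPM, and in DKO MEFs (3.84), from 0.563 ± 0.0277 to 7.98 ± 0.426 CPM (SD, n = 3 each). The related repressor Tbx3 was measured at 20.4 ± 0.500 CPM in Null and 0.154 ± 0.109 CPM in DKO controls (SD, n = 3 each), with a log2 difference of -7.01 (SE 0.17, adjusted p = 3.92e-16, same edgeR test). Ets1, an activator of p16Ink4a, fell (log2 fold changes -0.33 in Null and -1.20 in DKO MEFs), and its interaction was -0.87 (SE 0.04, adjusted p = 3.79e-11, same edgeR test). The histone demethylase gene Kdm6b fell (log2 fold changes -1.04 in Null and -0.70 in DKO MEFs).

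**Figure D4:**
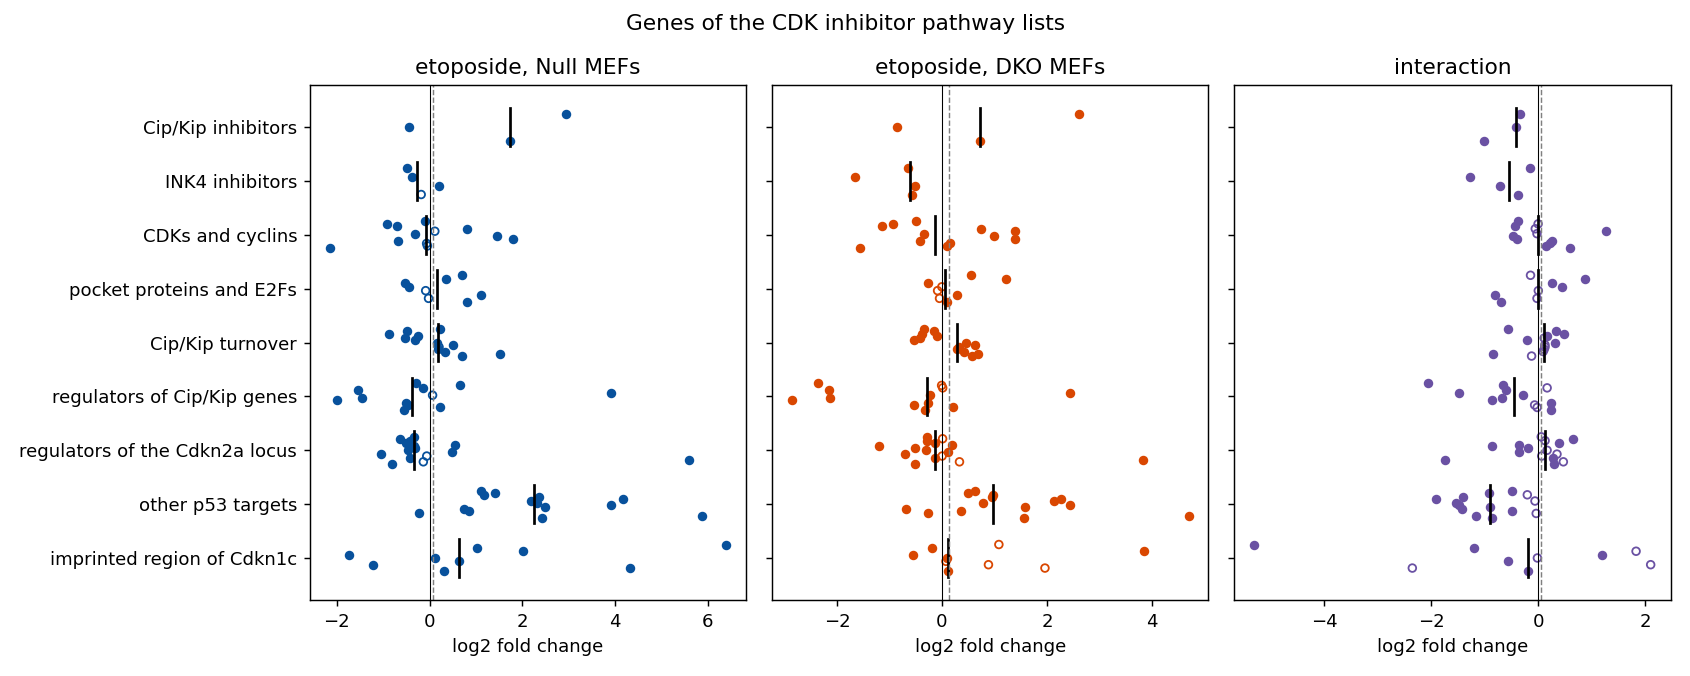
Log2 fold changes (horizontal axis) of the genes in each list for etoposide in Null MEFs, etoposide in DKO MEFs and the interaction, with filled points for genes past the test, open points for the others, a black tick for the median of the list and a dashed line for the median of all genes. The medians of the other p53 targets were 2.25, 0.96 and -0.91, and those of the INK4 inhibitors -0.28, -0.61 and -0.55.

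As a further reference, 5 proliferation markers and 5 genes whose names resemble those of the members were examined. Of the proliferation markers 4 fell and none rose with etoposide in Null MEFs, and 1 rose and 3 fell in DKO MEFs, with medians of -0.13 and -0.11 against 0.066 and 0.14. Their summed level was 2771 ± 82.1 CPM in Null controls and 2134 ± 16.8 CPM after etoposide, and 3032 ± 27.6 and 2505 ± 89.2 CPM in DKO MEFs (SD, n = 3 each). With library size alone the difference in DKO MEFs was not kept (2694 ± 35.8 and 2690 ± 90.5 CPM, SD, n = 3 each). The part of such shifts in the members' results was not tested. Of the genes with similar names 3 rose and 1 fell in Null MEFs, and 3 rose and 2 fell in DKO MEFs, with medians of 0.20 and 0.30. Cdkn3, a phosphatase gene that is no relative of the 7 inhibitors, fell (log2 fold changes -0.96 in Null and -0.97 in DKO MEFs). Cdkn2aip, named for a protein that binds Arf, rose (0.56 and 0.54).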

How the data were processed

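RNA-Seq of MEFs gave 12 libraries, whose titles state group and replicate number. The authors deposited their counts as 1 table with whole numbers for each gene, not normalized. The submitters' processing notes name HISAT2, featureCounts and the build mm10 (GRCm38), and the methods of the study name HTSeq for the counting, so the counter is uncertain. The library kit was a stranded one, while the sources used here give neither tool versions nor the strand option chosen for the counts. Reads outside annotated exons are lost by such counting. The 5 summary lines of the table entered neither library sizes nor tests. Genes took 53.4 to 63.1% of each library's total, and the rest was outside any feature (20.2 to 27.3%), aligned more than once (15.9 to 20.5%) or ambiguous (0.428 to 0.513%). No column of other samples was present.

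The analysis ran in edgeR 4.0.16 under R 4.3.3. Low counts were removed with filterByExpr, given the 4 groups, which left 15220 genes, and 1 model of the 12 libraries with a group factor was fitted by glmQLFit after TMM scaling. The 5 contrasts were tested by glmQLFTest with Benjamini-Hochberg adjustment over all genes tested and a threshold of 0.05. The fit was tested on simulated data. Each SE is the size of the log2 fold change over the square root of its F statistic. RPKM are TMM-scaled CPM per kilobase of summed exon length in GENCODE M21, in which 23309 of 24419 symbols matched 1 gene. Within groups, replicates spread beyond sampling noise, with a chi-square per degree of freedom of 10.7 to 22.0. Depth ranged from 45577023 to 104120871 counts on genes.

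Text names the 7 members, Tfeb and Tfe3, chromosome neighbours, for each member up to 3 genes of highest correlation, and from each list at most 4 genes per comparison, those with the largest log2 fold change in size among those called. Marker genes are named where they are the most abundant of their list per length, lie within its spread, or are near 0. The members and lists were chosen with earlier results of these data known. Alternatives were DESeq2 1.42.0, limma-trend with limma 3.58.1 as in the study, DESeq2's size factors, library size alone, no filter, a mean of at least 1 CPM, a replicate block, only the 6 libraries compared, and each library left out in turn. The legacy quasi-likelihood fit, and library size alone for summed levels, were added after seeing the data.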

Additional observations from a re-analysis of the deposited data

Results flagged for a closer look

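The response to etoposide differed between genotypes, by the test of the interaction itself, for each of the 7 members, all below 0, where 24.4% of all genes were called below and 29.6% above 0. The interaction on the log2 scale was -1.28 for Cdkn2b, -1.02 for Cdkn1c, -0.72 for Cdkn2c, -0.42 for Cdkn1b, -0.38 for Cdkn2d, -0.34 for Cdkn1a and -0.16 for Cdkn2a, against a median of 0.047 over all genes, and that of Cdkn2a did not pass under some alternatives. The members moved from different starting points. Cdkn1a and Cdkn1c rose less in DKO MEFs, Cdkn1b, Cdkn2a and Cdkn2b fell further, Cdkn2c fell where it rose in Null MEFs, and Cdkn2d fell from a higher control level, while its change in Null MEFs did not pass the test.

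Reads on no annotated feature, which no comparison used, made up a larger share of each etoposide library than of any control library of the same genotype. The share was 26.2 ± 1.11% after etoposide against 23.2 ± 0.898% in Null MEFs, and 21.9 ± 0.572% against 20.6 ± 0.432% in DKO MEFs (SD, n = 3 each). Its part in the members' results was not tested.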

How the results depend on the processing

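Of 560 values of the 7 members under the alternatives, 545 kept their direction and their side of the threshold, 7 were no longer past it, 6 came past it and 2 changed sign. The 2 that changed sign had not passed the test. Cdkn2c between control groups, -0.0032, was 0.025 without replicate 3 of the Null controls (range with a library left out -0.033 to 0.025), and Cdkn1b between genotypes after etoposide, 0.066, was -0.0069 without replicate 3 of the DKO etoposide group (range -0.0069 to 0.099). For Cdkn2d after etoposide in Null MEFs, -0.18, the value came past the threshold with limma-trend at -0.18, with no filter at -0.21 and with the replicate block at -0.18, ranged from -0.24 to -0.12 with a library left out, and was -0.012 (adjusted p = 0.892, range over the alternatives 0.0226 to 0.892) with library size alone. With library size alone Cdkn2c came past it between control groups at -0.12, and the interaction of Cdkn2a, -0.16, was -0.052 and not past it. With a library left out the latter ranged from -0.19 to -0.13. The cause of these changes was not tested, except that library size alone moved the median of all genes by 0.17 and 0.27 for etoposide in Null and DKO MEFs, by -0.12 between control groups and by 0.10 for the interaction. Relative to the median of all genes under that scaling, Cdkn2c between control groups was 0.017 and the interaction of Cdkn2a -0.20. The totals of genes called in both directions stayed within 1.5 times the main total under every alternative, while with library size alone the genes lower after etoposide in DKO MEFs were 3006 in place of 4790.

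Deviations from the group means correlated at -0.032 to 0.043 (median 0.012) between libraries with the same replicate number and at -0.047 to 0.048 (median -0.0071) between those with other numbers, and 9 of 12 libraries had their highest mean correlation with their own number. With the replicate block 12111 in place of 12091 genes were called for etoposide in Null MEFs and 8208 in place of 8226 for the interaction, and no member's call changed but that of Cdkn2d given above. Depth limits Cdkn1c most, with 54 to 146 counts in a DKO library, and counting error is small for the other members. Gene-level counts do not resolve transcripts of Cdkn2a, and 3 libraries of 1 line per genotype do not give the spread between lines.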
